A study of Mus musculus with 36 samples.

Results

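The lineage-choice transcription factors described here are 10 genes that direct blood progenitors into the erythroid, megakaryocytic, granulocytic, monocytic and lymphoid lines: *Gata2*, *Gata1*, *Klf1*, *Spi1*, *Cebpa*, *Cebpb*, *Cebpe*, *Irf8*, *Gfi1* and *Ikzf1*. They were chosen by name, as regulators of these lines, and looked up by Ensembl identifier. Each had a row, so they make up 10 of the 38887 genes in the table of counts. RNA was sequenced from long-term hematopoietic stem cells (LT-HSC, CD150+CD48- within Lin-c-Kit+Sca-1+ marrow) and from HPC-1, a multipotent progenitor fraction (CD150-CD48+ within the same compartment) that the labels call ST-HSC. Each sample was 5000 cells sorted from the bone marrow of C57BL/6 mice that all lacked *Apoe*, received a Western-type diet for 12 weeks starting 8 weeks after birth, and carried a subcutaneous osmotic pump delivering PBS or angiotensin II (Ang II, 800 ng/kg/min), a pressor peptide used to induce aortic aneurysm, during the last 2 weeks of the diet. The study asked how the receptor of the cytokine IL-27 shapes the response of these cells to Ang II, and its mice were *Apoe*-/- with intact *Il27ra* (labelled WT), *Apoe*-/-*Il27ra*+/- (HET) or *Apoe*-/-*Il27ra*-/- (KO), deleted in the whole animal. The 17 LT-HSC libraries comprised 1 PBS WT, 3 PBS HET, 3 PBS KO, 2 Ang II WT, 4 Ang II HET and 4 Ang II KO, and the 19 HPC-1 libraries 2 PBS WT, 3 PBS HET, 3 PBS KO, 3 Ang II WT, 4 Ang II HET and 4 Ang II KO. The labels number the replicates but do not say whether these came from separate mice, and they give no gender, age or batch, so p-values measure the spread between these samples, which may be technical. A legend of the paper counts 2 WT, 4 HET and 3 KO mice for the sorted cells, fewer KO mice than the 4 Ang II KO libraries of each cell type, and the paper's own analysis used gender as a factor.

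*Gata2* keeps stem cells in their undifferentiated state, and its partner gene *Gata1* takes over at many of the same DNA sites when cells enter the erythroid and megakaryocytic lines, where *Klf1* then drives red cell genes. *Spi1* encodes PU.1, which opposes GATA1 by direct binding and, with C/EBPα from *Cebpa*, starts the granulocyte and monocyte programme. *Irf8* then favours monocytes and dendritic cells, *Gfi1* and *Cebpe* favour granulocytes, and *Cebpb* serves granulocyte production in emergencies. *Ikzf1* encodes Ikaros, which primes multipotent progenitors for lymphoid genes.

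Totals ran from 1980283 to 6861078 counts per library (median 3139364), and 25 of 36 libraries held under 4000000 counts. Values are CPM, counts per library of 1000000, after TMM scaling over the 36 libraries, and 3 counts in a library were taken as the limit of detection, which equals 0.398 to 1.49 CPM and covers counting error only. Differences were tested with edgeR's quasi-likelihood test at a Benjamini-Hochberg adjusted p of 0.05, written below as passing the test, over 18013 genes for both cell types together, 16365 for LT-HSC alone and 13199 for HPC-1 alone. All 10 members passed the filter on low counts in these 3 models.

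*Il27ra*, the deleted gene, was at 42.7, 24.1 and 25.6 CPM in PBS HET LT-HSC and 30.2, 25.5, 27.1 and 32.8 CPM in Ang II HET LT-HSC. In KO LT-HSC it was at 9.42, 6.94 and 16.3 CPM after PBS and 16.3, 11.7, 16.2 and 19.3 CPM after Ang II. The Ang II WT libraries held 42.9 and 51.8 CPM, but the library labelled LT-HSC PBS WT held 17.1 CPM, inside the range of KO and below every HET library, so its label is not borne out by this gene. In HPC-1 *Il27ra* was low in all genotypes, at 6.07 to 11.9 CPM in WT, 5.46 to 16.5 in HET and 4.64 to 11.1 in KO, and does not separate them.

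A pair of LT-HSC libraries stood apart from the others. Over 12 LT-HSC markers (*Procr*, *Vwf*, *Meis1* and others) the other 15 LT-HSC libraries summed to 1792 to 3015 CPM and the 19 HPC-1 libraries to 322 to 667 CPM. Over 10 HPC-1 markers (*Cd48*, *Flt3*, *Mpo* and others) they summed to 315 to 920.2 and 5246 to 8691 CPM. LT-HSC PBS KO library 2 had 536 CPM of LT-HSC markers and 6306 CPM of HPC-1 markers, led by *Mpo* at 3522 CPM, values within the range of the HPC-1 libraries. LT-HSC Ang II KO library 2 lay between the cell types, with 1328 CPM of LT-HSC markers and 2014 CPM of HPC-1 markers. It also held 7907 CPM over 9 neutrophil markers, all 9 above the limit of detection and led by *S100a9* at 2182 CPM, and 3203 CPM over 7 erythroid markers, led by *Hba-a2* at 995 CPM. Its 8 macrophage markers summed to 1726 CPM, of which *Lyz2* made up 1655 CPM while *C1qa* and *C1qc* were at 0, and its 8 mast cell and eosinophil markers to 508 CPM, led by *Prg2*. LT-HSC PBS KO library 3 kept LT-HSC markers at 2291 CPM but had 1333 CPM of neutrophil and 3210.2 CPM of erythroid markers, against a median over the 15 libraries of 10.5 and 66.6 CPM. Results are given with all libraries and without PBS KO library 2 and Ang II KO library 2, which are called the 2 libraries apart. A lower value in a sorted sample can come from fewer cells of a type or from less RNA in each cell, which these bulk data cannot tell apart.

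The WT samples also differed from the rest in 14 markers of intestinal epithelium, a tissue outside the gate. Their sum was 243 to 475 CPM in the 3 WT LT-HSC libraries against 6.05 to 34.96 CPM in the 14 others. It was 57.5 to 309 CPM in the 5 WT HPC-1 libraries against 2.78 to 41.3 CPM in the 14 others. On this measure the library labelled LT-HSC PBS WT, at 243 CPM, goes with its label, unlike its *Il27ra*. B cell markers were at 6.97 to 20.3 CPM in LT-HSC and 2.73 to 20.6 CPM in HPC-1. T and NK cell markers were at 0.963 to 24.1 and 3.47 to 44.4 CPM. On average most of this was *Nkg7* (mean 6.74 CPM in the 15 LT-HSC and 29.7 CPM in the 19 HPC-1 libraries), also a granule gene of granulocytes. In Ang II KO library 2 *Nkg7* was at 16.8 CPM, beside *Cd3g* at 3.02 and *Cd8a* at 1.73 CPM. Stromal and endothelial markers were at 82.9 to 194 and 145 to 212 CPM, of which *Pecam1* was the most abundant. Of the gate genes shared by both cell types, *Kit* was at 937 ± 158 against 717 ± 135 CPM (mean ± SD of the 15 LT-HSC against the 19 HPC-1 libraries) and *Ly6a*, which encodes Sca-1, at 15.4 ± 5.71 against 5.52 ± 3.50 CPM, both higher in LT-HSC by the test described above.

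Between the cell types most members differed. *Gata2* and *Gata1* were higher in LT-HSC, while *Spi1*, *Cebpa*, *Cebpe*, *Irf8*, *Gfi1* and *Ikzf1* were higher in HPC-1, and *Klf1* and *Cebpb* did not pass the test. In the mean of the 6 within-condition differences, 8 of 10 members passed the edgeR quasi-likelihood test (Benjamini-Hochberg), against 35.7% of all genes tested. In LT-HSC 2 members were higher, against 16.5% of genes, and in HPC-1 6 members, against 19.2% of genes. The median log2 difference (LT-HSC minus HPC-1) was −1.10 over the members and −0.01 over all genes. The median absolute difference was 1.33 and 0.48. For genes with a group that held no count, the log2 ratio of the cell type means of group CPM was also taken. Groups under the limit of detection were set at it, and all libraries were kept. With this ratio in place of the fitted value of those genes, the members' median was −0.71, against 0.09 over all genes. Without the 2 libraries apart 8 members again passed the test, against 37.8% of genes, and the medians were −1.23 over the members and −0.02 over all genes. Over the 15 LT-HSC and 19 HPC-1 libraries, 1 member (*Gata2*) was above every HPC-1 library in every LT-HSC library, as were 2.31% of genes, and 3 members (*Spi1*, *Cebpa* and *Irf8*) were below, as were 1.53%. With all 17 LT-HSC libraries no member had separate ranges, and 0.0611% and 0.0333% of genes did.

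**Figure D1:**
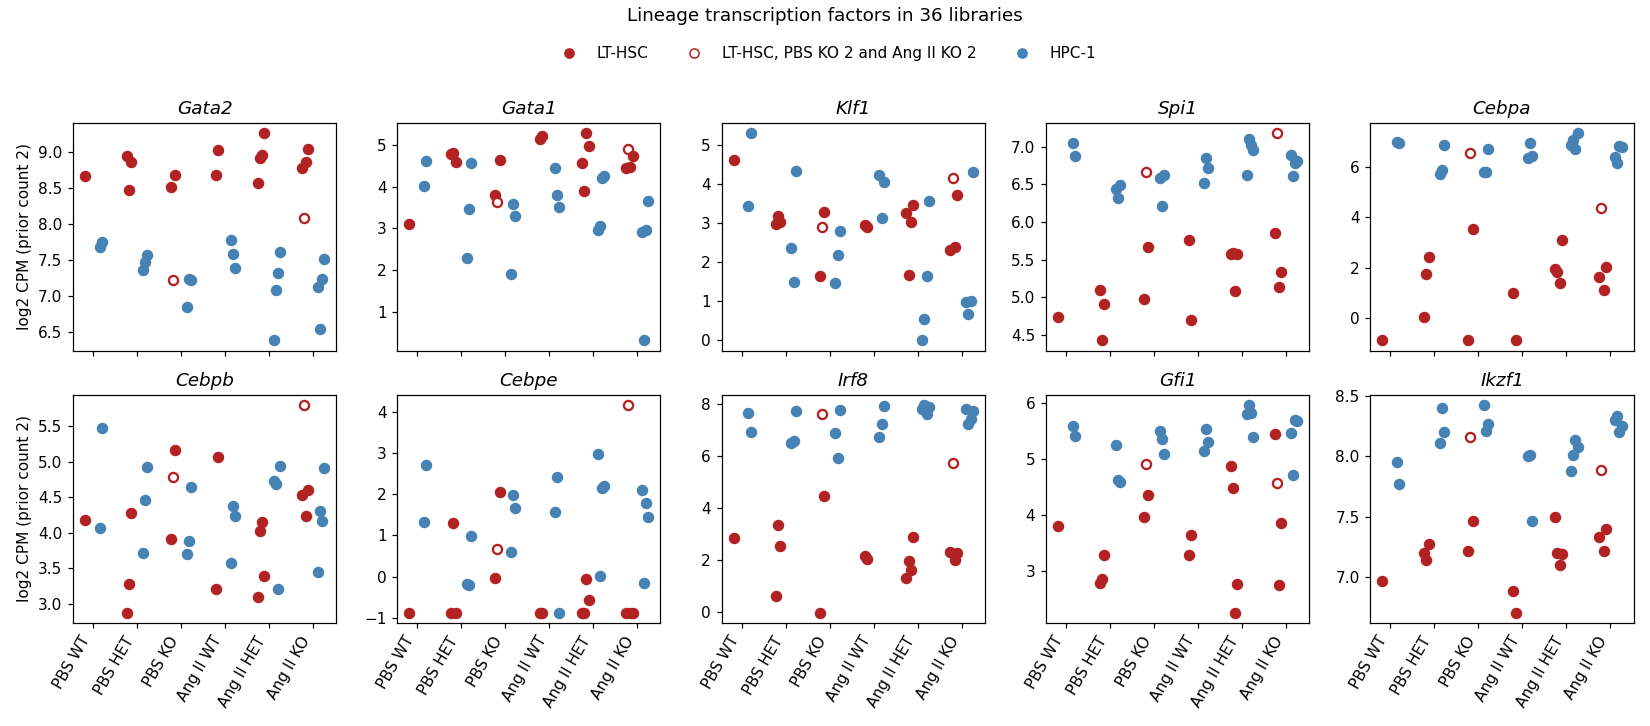
Each panel shows 1 of the 10 transcription factors, with log2 CPM (prior count 2) on the vertical axis and the 6 conditions on the horizontal axis; each point is 1 library, red for LT-HSC, blue for HPC-1, and open for LT-HSC PBS KO library 2 and Ang II KO library 2. The filled points of *Gata2* lie higher, and those of *Spi1*, *Cebpa* and *Irf8* lower, in LT-HSC than in HPC-1, as do those of *Ikzf1* but for 2 points.

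*Gata2*, the stem cell GATA factor, was the most abundant member per kilobase in LT-HSC. Its LT-HSC values were 404 in PBS WT, 489.6, 353 and 464 in PBS HET, 362, 149 and 408 in PBS KO, 409.7 and 519 in Ang II WT, 379, 483, 497 and 611 in Ang II HET, and 435, 269, 463 and 522 in Ang II KO (CPM, in the order of replicates). In HPC-1 they were 205 and 215 in PBS WT, 163, 177 and 189.6 in PBS HET, 114, 150.2 and 149 in PBS KO, 219, 191 and 167 in Ang II WT, 83.2, 135, 159 and 196 in Ang II HET, and 139.6, 92.9, 151 and 183 in Ang II KO. Every LT-HSC library lay above every HPC-1 library except PBS KO library 2, at 149 CPM, which fell among the HPC-1 libraries. Ang II KO library 2, at 269 CPM, was the next lowest in LT-HSC. *Gata2* was higher in LT-HSC (log2 difference 1.34, SE 0.126, adjusted p = 9.02e-10, edgeR quasi-likelihood, Benjamini-Hochberg). Without the 2 libraries apart it was 1.42.

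*Gata1*, which drives red cell and platelet precursors, was at 8.08 in PBS WT, 26.7, 27.6 and 23.3 in PBS HET, 13.3, 11.8 and 24.2 in PBS KO, 34.7 and 36.8 in Ang II WT, 23.1, 14.2, 38.4 and 31.1 in Ang II HET, and 21.1, 29.3, 21.5 and 25.9 in Ang II KO CPM in LT-HSC. In HPC-1 it was at 15.7 and 23.8 in PBS WT, 4.30, 10.4 and 23.2 in PBS HET, 3.19, 11.4 and 9.23 in PBS KO, 21.3, 13.3 and 10.8 in Ang II WT, 7.28, 7.76, 17.8 and 18.4 in Ang II HET, and 6.92, 0.696, 7.24 and 11.99 in Ang II KO CPM. The ranges overlapped: 9 of 17 LT-HSC libraries lay above every HPC-1 library and 8 inside the HPC-1 range, among them the library labelled LT-HSC PBS WT, the lowest of LT-HSC. The difference passed the test (log2 difference 0.81, SE 0.240, adjusted p = 0.00668, edgeR quasi-likelihood, Benjamini-Hochberg) and was 0.83 without the 2 libraries apart. *Klf1*, the red cell KLF factor, was low in both cell types, at 2.57 to 23.8 CPM (median 7.55) in LT-HSC and 0.455 to 38.9 CPM (median 4.63) in HPC-1. Of the HPC-1 libraries 3 of 19 were no higher than the limit of detection and the highest, PBS WT library 2, held 111 counts. Every LT-HSC value lay inside the HPC-1 range. No difference between the cell types was detected for *Klf1* (log2 difference 0.14, SE 0.400, adjusted p = 0.984, edgeR quasi-likelihood, Benjamini-Hochberg).

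Of the myeloid factors, *Spi1* was at 26.2 in PBS WT, 33.5, 20.9 and 29.5 in PBS HET, 30.8, 101 and 50.5 in PBS KO, 53.4 and 25.4 in Ang II WT, 47.1, 47.5, 33.4 and 47.01 in Ang II HET, and 57.3, 145, 34.6 and 39.8 in Ang II KO CPM in LT-HSC. In HPC-1 it was at 132 and 117 in PBS WT, 86.03, 79.4 and 89.5 in PBS HET, 95.3, 73.9 and 98.3 in PBS KO, 91.6, 115 and 104 in Ang II WT, 98.7, 138, 129 and 124 in Ang II HET, and 118, 97.7, 110.1 and 112 in Ang II KO CPM. All 15 LT-HSC libraries lay below all 19 HPC-1 libraries once the 2 libraries apart were set aside. Those held 101 CPM, inside the HPC-1 range, and 145 CPM, above every HPC-1 library. *Spi1* was lower in LT-HSC (log2 difference −1.33, SE 0.178, adjusted p = 5.90e-07, edgeR quasi-likelihood, Benjamini-Hochberg), and by −1.52 without the 2 libraries apart.

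*Cebpa*, which opens the granulocyte and monocyte programme together with *Spi1*, was low in LT-HSC, at 0 in PBS WT, 0.486, 2.85 and 4.84 in PBS HET, 0, 91.8 and 11.2 in PBS KO, 1.44 and 0 in Ang II WT, 3.30, 2.99, 2.10 and 7.97 in Ang II HET, and 2.59, 19.9, 1.64 and 3.58 in Ang II KO CPM. Its HPC-1 values were 126 and 120.2 in PBS WT, 51.9, 57.6 and 116 in PBS HET, 55.5, 54.2 and 103 in PBS KO, 79.6, 120.2 and 84.5 in Ang II WT, 116, 133, 104 and 160.2 in Ang II HET, and 83.9, 69.2, 111 and 109 in Ang II KO CPM. In LT-HSC 3 of 17 libraries had no count and 5 were at or under the limit, whereas every HPC-1 library lay above every LT-HSC library except PBS KO library 2, at 91.8 CPM. *Cebpa* was lower in LT-HSC (log2 difference −5.52, SE 0.685, adjusted p = 4.91e-07, edgeR quasi-likelihood, Benjamini-Hochberg). Without the 2 libraries apart the value was −6.10. Because the library labelled LT-HSC PBS WT held no count, that fitted value depends on the prior count. The difference was −4.26 without that condition and −6.27 without LT-HSC Ang II WT library 1. The log2 ratio of the cell type means of group CPM, with groups under the limit set at it, was −3.52. That ratio is another measure than the fitted difference and includes PBS KO library 2, at 91.8 CPM.

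*Irf8*, a monocyte and dendritic cell factor, was at 6.66 in PBS WT, 0.971, 9.51 and 5.18 in PBS HET, 0.428, 195 and 21.4 in PBS KO, 3.85 and 3.48 in Ang II WT, 1.89, 3.37, 2.52 and 6.77 in Ang II HET, and 4.44, 52.2, 3.48 and 4.27 in Ang II KO CPM in LT-HSC. In HPC-1 it was at 203 and 120.2 in PBS WT, 89.3, 94.97 and 213 in PBS HET, 118, 60.3 and 217 in PBS KO, 106, 152 and 241 in Ang II WT, 223, 249, 195 and 235 in Ang II HET, and 223, 151, 171 and 216 in Ang II KO CPM. The 15 LT-HSC libraries lay below all HPC-1 libraries, the highest of them being PBS KO library 3 at 21.4 CPM. PBS KO library 2 lay inside the HPC-1 range at 195 CPM and Ang II KO library 2 just under it at 52.2 CPM. *Irf8* was lower in LT-HSC (log2 difference −4.17, SE 0.617, adjusted p = 6.04e-06, edgeR quasi-likelihood, Benjamini-Hochberg). Without the 2 libraries apart the value was −4.90.

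*Gfi1*, a repressor needed for granulocyte maturation that is also active in stem cells, was at 13.3 in PBS WT, 6.31, 6.66 and 9.16 in PBS HET, 14.99, 29.7 and 19.9 in PBS KO, 9.15 and 11.9 in Ang II WT, 28.8, 21.7, 4.20 and 6.24 in Ang II HET, and 43.3, 23.3, 6.13 and 13.9 in Ang II KO CPM in LT-HSC. The HPC-1 libraries held 47.6 and 42.4 in PBS WT, 37.4, 24.1 and 23.6 in PBS HET, 44.9, 40.6 and 33.4 in PBS KO, 34.7, 46.3 and 39.01 in Ang II WT, 55.5, 62.1, 56.5 and 41.8 in Ang II HET, and 43.8, 25.7, 51.6 and 50.7 in Ang II KO CPM. It was lower in LT-HSC (log2 difference −1.56, SE 0.244, adjusted p = 5.11e-06, edgeR quasi-likelihood, Benjamini-Hochberg), with 14 of 17 LT-HSC libraries below every HPC-1 library. The exceptions were PBS KO library 2, Ang II HET library 1 and Ang II KO library 1, the last at 43.3 CPM, the highest of LT-HSC. Without the 2 libraries apart the difference was −1.61.

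*Cebpb*, the C/EBP factor of emergency granulopoiesis, was at 6.80 to 54.8 CPM (median 17.6) in LT-HSC and 8.69 to 43.8 CPM (median 19.1) in HPC-1. The ranges overlapped almost entirely, since 13 of 17 LT-HSC libraries lay inside the HPC-1 range, and no difference was detected (log2 difference −0.15, SE 0.228, adjusted p = 0.760, edgeR quasi-likelihood, Benjamini-Hochberg). *Cebpe*, the C/EBP factor of late granulocytes, was the least abundant member: 10 of 17 LT-HSC libraries had no count and 13 did not exceed the limit of detection, against 1 and 6 of 19 HPC-1 libraries. The highest HPC-1 value was 7.28 CPM (16 counts), and Ang II KO library 2 of LT-HSC held 17.3 CPM (40 counts), beside the neutrophil markers given above. Their part in this value was not tested. *Cebpe* passed the test as lower in LT-HSC (log2 difference −2.85, SE 0.9995, adjusted p = 0.0225, edgeR quasi-likelihood, Benjamini-Hochberg), and by −3.95 without the 2 libraries apart. That call rested on the PBS WT condition. Without the condition, which holds the library labelled LT-HSC PBS WT and 2 HPC-1 libraries, the log2 difference was −2.04 and the adjusted p 0.0575 by edgeR quasi-likelihood, Benjamini-Hochberg. It was −3.56 without LT-HSC PBS HET library 2. With groups under the limit set at it, the log2 ratio of the cell type means of group CPM was −0.55. That ratio is another measure than the fitted difference and includes Ang II KO library 2, at 17.3 CPM.

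*Ikzf1*, which encodes Ikaros, was at 125 in PBS WT, 147, 141 and 154 in PBS HET, 149, 285 and 176 in PBS KO, 117 and 104 in Ang II WT, 180.1, 146, 137 and 146 in Ang II HET, and 161, 237, 148 and 168 in Ang II KO CPM in LT-HSC. In HPC-1 it was at 248 and 218 in PBS WT, 276, 338 and 294 in PBS HET, 343, 295 and 308 in PBS KO, 256, 257 and 176 in Ang II WT, 235, 257, 280.2 and 269 in Ang II HET, and 315, 322, 294 and 304 in Ang II KO CPM. All but 2 of the 15 LT-HSC libraries lay below every HPC-1 library, and the lowest HPC-1 library was Ang II WT library 3 at 176 CPM. The 2 libraries apart were at 285 and 237 CPM, within the HPC-1 range. *Ikzf1* was lower in LT-HSC (log2 difference −0.87, SE 0.0862, adjusted p = 2.53e-10, edgeR quasi-likelihood, Benjamini-Hochberg). Without the 2 libraries apart it was −0.94. The difference is smaller than that of *Cebpa* or *Irf8* but has the smallest SE of the 10 members.

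**Figure D2:**
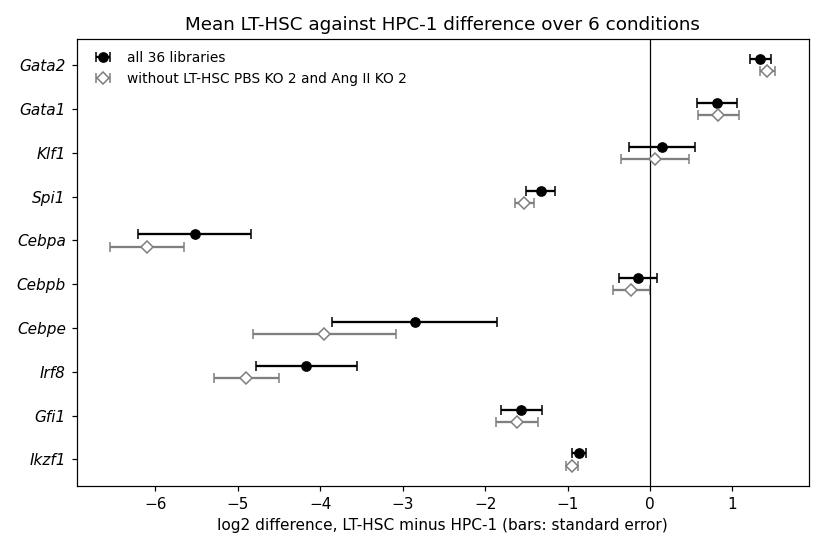
Log2 difference between LT-HSC and HPC-1 for each of the 10 genes, averaged over 6 conditions; points are estimates from the model of 12 groups and bars their standard errors, in black with 36 libraries and in grey without LT-HSC PBS KO library 2 and Ang II KO library 2. *Gata2* and *Gata1* lie right of 0, the bars of *Klf1* and, with 36 libraries, *Cebpb* include 0, and the other 6 lie left of it, down to −5.52 for *Cebpa* with 36 libraries and −6.10 without the 2.

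Levels of different genes were compared as CPM per kilobase of exon. In the 15 LT-HSC libraries the order was *Gata2* (83.96 ± 13.01, mean ± SD), *Ikzf1* (25.4 ± 3.58), *Spi1* (14.3 ± 4.20), *Cebpb* (11.5 ± 5.74), *Gata1* (10.1 ± 3.52), *Klf1* (5.42 ± 3.32), *Gfi1* (4.51 ± 3.30), *Cebpa* (1.14 ± 1.17), *Irf8* (0.739 ± 0.714) and *Cebpe* (0.347 ± 0.807). *Gata2* and *Ikzf1*, and *Ikzf1* and *Spi1*, were apart by more than their SDs, while each of the other neighbours in that order overlapped. In HPC-1 the order per kilobase was *Ikzf1* (48.2 ± 7.27), *Spi1* (39.3 ± 6.71), *Cebpa* (37.1 ± 11.6), *Gata2* (30.03 ± 7.08), *Irf8* (24.4 ± 8.39), *Cebpb* (13.7 ± 5.87), *Gfi1* (13.2 ± 3.39), *Klf1* (5.82 ± 6.45), *Gata1* (4.85 ± 2.74) and *Cebpe* (2.08 ± 1.65), and no neighbours were apart by more than their SDs. *Gata2* thus went from the first to the fourth place and *Cebpa* from the eighth to the third between LT-HSC and HPC-1. The per-kilobase ratio of *Spi1* to *Gata1*, opposed factors of the myeloid and erythroid lines, was 0.623 to 3.02 (median 1.39) over the 15 LT-HSC libraries. In HPC-1 its median was 8.42, the lowest 3.49, and the highest 27.05 among libraries with *Gata1* above the limit of detection. Ang II KO library 2 of HPC-1, with 2 counts of *Gata1*, gave 127 with a 95% counting interval of 35.2 to 1049.5. The estimates of the 15 LT-HSC libraries lay below those of the 19 HPC-1 libraries, but the counting intervals of the nearest overlapped (2.20 to 4.27 for LT-HSC Ang II HET library 2 and 2.91 to 4.23 for HPC-1 PBS HET library 3). The 2 libraries apart, at 7.76 and 4.47, lay inside the HPC-1 range.

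**Figure D3:**
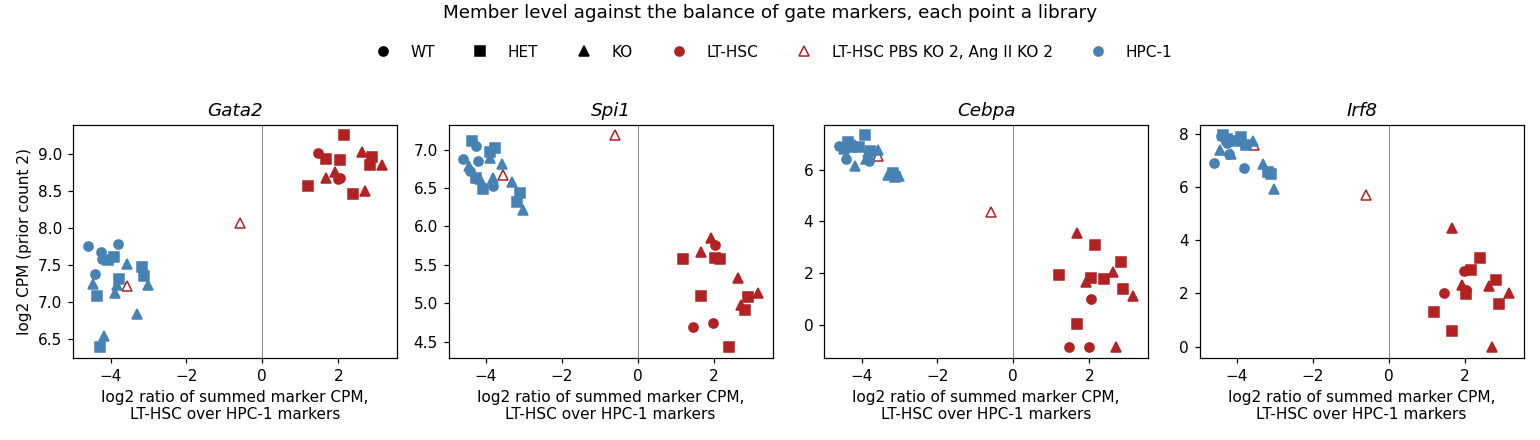
Log2 CPM (prior count 2) of *Gata2*, *Spi1*, *Cebpa* and *Irf8* against the log2 ratio of summed LT-HSC marker CPM to summed HPC-1 marker CPM, each point being 1 library; circles are WT, squares HET and triangles KO, red LT-HSC, blue HPC-1, and open triangles LT-HSC PBS KO library 2 and Ang II KO library 2. PBS KO library 2, at a ratio of −3.56, sits with the HPC-1 points in all 4 panels, and Ang II KO library 2, at −0.60, between the cell types on the horizontal axis.

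The cell types were then compared within each condition, which asks whether the contrast held under each genotype and treatment. These comparisons share no libraries with each other. Of the 10 members, 6 passed the edgeR quasi-likelihood test (Benjamini-Hochberg) in PBS HET, against 7.67% of genes. The number was 6 in Ang II WT, against 10.4%, and 6 in Ang II HET, against 14.9%. Each time these were *Gata2*, *Spi1*, *Cebpa*, *Irf8*, *Gfi1* and *Ikzf1*. In Ang II KO 5 members passed (*Gata1*, *Gata2*, *Cebpa*, *Irf8* and *Ikzf1*), against 12.5% of genes, and without the 2 libraries apart 7, with *Spi1* and *Cebpe* added, against 17.1%. By limma-voom 4 passed in Ang II WT, without *Irf8* (adjusted p 0.0961) and *Gfi1* (0.228), against 7.34% of genes. In PBS KO, 0 members passed, against 0.883% of genes by edgeR's quasi-likelihood test, 2 by DESeq2 (2.48% of genes) and 6 by limma-voom with sample weights (14.8%). There 2 came to an unadjusted p under 0.05, as did 10.8% of genes. Leaving out the 2 libraries apart, 5 passed (*Gata2*, *Spi1*, *Cebpa*, *Irf8* and *Ikzf1*), against 7.88% of genes. PBS WT, with 1 LT-HSC library, was not tested alone, and whether the contrast differed between genotypes was not tested.

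*Gata2* was higher in LT-HSC by log2 differences of 1.30 in PBS HET, 1.27 in Ang II WT, 1.78 in Ang II HET and 1.58 in Ang II KO. The log2 differences of *Irf8* were −4.59, −5.49, −5.80 and −3.69 in the same order, and those of *Ikzf1* −1.04, −1.05, −0.78 and −0.79. In PBS KO, where none passed, they were 1.15 for *Gata2*, −0.84 for *Irf8* and −0.63 for *Ikzf1*, and 1.503, −3.39 and −0.94 without the 2 libraries apart. The Ang II KO values without them were 1.73, −5.56 and −0.96. In Ang II KO, *Gata1* was higher in all 4 LT-HSC libraries than in any HPC-1 library of that condition (log2 difference 1.82, SE 0.477, adjusted p = 0.00879, edgeR quasi-likelihood, Benjamini-Hochberg). Of those HPC-1 libraries, library 2 held 2 counts, under the limit of detection. The share of all genes with separate ranges there is not given. *Cebpe* in Ang II KO had no count in the 3 LT-HSC libraries other than library 2, and there was at least 3.21-fold lower than the HPC-1 mean, with the limit of detection taken per library. With all 4 libraries its log2 difference was 0.84, higher in LT-HSC, and did not pass the test. Without the 2 libraries apart the fitted value was −6.08, which depends on the prior count.

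Several of these calls were lost or gained by edgeR quasi-likelihood testing (Benjamini-Hochberg) when 1 library was left out. The share of all genes that passed is not given for these omissions. In PBS HET, *Gfi1* did not pass without LT-HSC library 1 (adjusted p 0.0747), 2 (0.0964) or 3 (0.0826) or HPC-1 library 1 (0.145), all edgeR values. Nor did *Irf8* without LT-HSC library 1 (0.0554) or 3 (0.0866) or HPC-1 library 3 (0.0532), or *Spi1* without LT-HSC library 2 (0.0668) or 3 (0.0522), all edgeR values. The log2 differences behind these lost calls changed little, lying at −2.08 to −1.54 for *Gfi1* (−1.91 with all libraries), −4.49 to −4.01 for *Irf8* and −1.62 to −1.43 for *Spi1* (−1.61). In Ang II WT only 1 member, *Ikzf1*, passed without LT-HSC library 2 (edgeR adjusted p of 0.343 for *Spi1*, 0.0912 for *Gata2*, 0.142 for *Gfi1*, 0.0717 for *Cebpa* and 0.123 for *Irf8*). Without LT-HSC library 1, *Gfi1* (0.238) and *Irf8* (0.131) did not pass either, by edgeR adjusted p. With LT-HSC library 1 or 2 left out, the log2 difference of *Irf8* was −5.56 or −5.41 and that of *Gfi1* −1.75 or −2.12 (−1.92 with all libraries), with the arm down to 1 library. Other members moved more: *Spi1* was −2.03 or −0.95 (−1.39 with all libraries) and *Gata2* 1.42 or 1.09. *Cebpa* was −6.00 without library 2, which itself held no count, against −6.95 with all libraries. Over the 5 omissions of 1 library in Ang II WT, *Cebpa* ran from −11.4 to −6.00. In Ang II WT, *Spi1* and *Gfi1* did not pass without HPC-1 library 1 (edgeR adjusted p 0.0518 and 0.0578), 2 (0.113 and 0.106) or 3 (0.0929 and 0.0883), nor *Gata2* without HPC-1 library 3 (0.0536). Their log2 differences were then −1.48, −1.26 and −1.40 for *Spi1*, −2.02, −1.76 and −1.95 for *Gfi1* and 1.17 for *Gata2*. In Ang II KO, *Gfi1* passed without LT-HSC library 1 (edgeR adjusted p 0.0170), *Spi1* and *Cebpe* without LT-HSC library 2 (3.26e-04 and 0.0118) and *Klf1* without HPC-1 library 4 (0.0196). Their log2 differences moved from −1.02 with all libraries to −1.58 for *Gfi1* and from −0.68 to −1.33 for *Spi1*. For *Klf1* the move was from 0.68 to 2.84, and *Cebpe* changed direction, from 0.84 to −6.11. In PBS KO, 4 members passed without LT-HSC library 2 (edgeR adjusted p 1.79e-04 for *Gata2*, 0.00128 for *Ikzf1*, 0.0157 for *Cebpa* and 0.0413 for *Irf8*). In Ang II HET no omission of 1 library changed a call. Calls were also lost under other settings of edgeR: in Ang II WT that of *Gfi1* with upper-quartile scaling (adjusted p 0.0521) and of *Spi1* with the compared groups alone (0.0595). In Ang II KO they were those of *Irf8* with the compared groups alone (edgeR adjusted p 0.0541), and of *Irf8* (0.0719) and *Ikzf1* (0.0807) in libraries under 4000000 counts. The log2 differences behind these calls were −1.88 for *Gfi1* and −1.36 for *Spi1* in Ang II WT. In Ang II KO they were −3.62 and −2.69 for *Irf8* (−3.69 with the main settings) and −0.64 for *Ikzf1* (−0.79).

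The relatives, partners and known target genes of these factors were taken from lists of known genes and compared between LT-HSC and HPC-1 in the same mean of 6 conditions, where 35.7% of all genes passed the test. Examples are CPM means ± SD over the 15 LT-HSC and the 19 HPC-1 libraries. The list medians with groups without counts set at the limit of detection use the ratio described above for such genes, with all libraries kept. Of the paralogs of the same families, 12 of 16 tested genes passed (7 higher in LT-HSC, 5 higher in HPC-1; median log2 difference 0.42, and 0.74 with groups without counts set at the limit of detection). *Gata3* was at 24.9 ± 7.83 against 5.58 ± 3.26, *Gfi1b*, the red cell and platelet relative of *Gfi1*, at 54.7 ± 15.4 against 16.8 ± 6.54, and *Irf2* at 159 ± 34.9 against 99.7 ± 17.96. *Cebpd* was higher in HPC-1, at 3.22 ± 2.09 against 16.3 ± 11.6, as was the Ikaros relative *Ikzf2*, at 87.8 ± 18.7 against 143 ± 28.1. Of the partner factors, 13 of 22 tested genes passed (8 higher in LT-HSC, 5 higher in HPC-1; median log2 difference 0.34, and 0.39 with groups without counts set at the limit of detection). *Zfpm1*, the GATA cofactor FOG-1, was at 628 ± 141 against 143 ± 43.7, *Tal1* at 176 ± 19.5 against 101 ± 12.4, *Lmo2* at 716 ± 86.1 against 457 ± 29.5 and *Fli1* at 288 ± 33.3 against 133 ± 17.9, all higher in LT-HSC. *Myb* was higher in HPC-1, at 784 ± 107 against 1202 ± 142, with *Cbfb* at 90.8 ± 10.4 against 137 ± 13.5.

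Among target genes of the erythroid line, 5 of 15 tested genes passed (3 higher in LT-HSC, 2 higher in HPC-1; median log2 difference 1.14, and 1.22 with groups without counts set at the limit of detection). *Car2* was at 405 ± 107 against 141 ± 41.1 and *Hemgn* at 63.3 ± 14.3 against 32.5 ± 12.5, while *Tfrc*, the transferrin receptor, was higher in HPC-1, at 59.9 ± 17.2 against 153 ± 48.9. Of the megakaryocyte genes, 10 of 12 tested genes passed (10 higher in LT-HSC, 0 higher in HPC-1; median log2 difference 3.38, and 2.98 with groups without counts set at the limit of detection). The integrin *Itgb3* was at 256 ± 75.8 against 27.7 ± 7.35, *Pf4* at 95.9 ± 84.7 against 0.545 ± 0.578 and *Vwf*, which is also among the LT-HSC markers, at 515 ± 188 against 4.31 ± 2.55.

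Of the primary granule genes of granulocytes, 12 of 12 tested genes passed (1 higher in LT-HSC, 11 higher in HPC-1; median log2 difference −3.10, and −2.06 with groups without counts set at the limit of detection). *Mpo* was at 13.5 ± 26.2 against 4561 ± 1345, *Ctsg* at 0.507 ± 1.54 against 248 ± 109 and *Prtn3* at 37.97 ± 12.4 against 219 ± 84.8. *Cd63* was the 1 gene higher in LT-HSC, at 63.99 ± 19.1 against 34.5 ± 7.31. Of the secondary granule genes, in contrast, 1 of 12 tested genes passed (0 higher in LT-HSC, 1 higher in HPC-1; median log2 difference 0.60, and 3.04 with groups without counts set at the limit of detection), and each of the 12 had a group without counts. The 1 gene was *Itgam*, at 15.5 ± 16.7 against 45.8 ± 13.03, and without the 2 libraries apart 2 passed and the median was −0.57. Of these genes, 9 are the neutrophil markers that were high in Ang II KO library 2. The median of 3.04 includes that library, whereas −0.57 is the median of fitted values without the 2 libraries apart. Of the monocyte and dendritic cell genes, 11 of 12 tested genes passed (1 higher in LT-HSC, 10 higher in HPC-1; median log2 difference −3.31, and −2.06 with groups without counts set at the limit of detection). *F13a1* was at 2.95 ± 6.43 against 216 ± 124, *Flt3*, also an HPC-1 marker, at 35.8 ± 23.7 against 347 ± 133 and *Ly86* at 0.356 ± 0.794 against 17.1 ± 10.1, while *Cd74* was higher in LT-HSC, at 29.6 ± 17.9 against 3.92 ± 2.79. Of the lymphoid genes, 7 of 10 tested genes passed (0 higher in LT-HSC, 7 higher in HPC-1; median log2 difference −2.66, and −0.99 with groups without counts set at the limit of detection). *Dntt* was at 1.24 ± 2.44 against 182 ± 127, *Satb1* at 14.8 ± 8.78 against 278 ± 65.03, *Notch1* at 89.6 ± 15.4 against 178 ± 59.3 and *Ighm* at 10.7 ± 22.7 against 139 ± 44.8. *Dntt* and *Satb1* are also HPC-1 markers.

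For each member the 2 genes of most similar pattern over the 36 libraries were found by Pearson's r of log2 CPM, of which 1 is given for *Cebpa*. Since the libraries form 2 clusters, the r printed is that within each cell type, where libraries still differ in group and depth. *Gata2* was most like *Shank3* and its cofactor gene *Zfpm1*, with r of 0.64 and 0.68 over the 15 LT-HSC and 0.81 and 0.77 over the 19 HPC-1 libraries. Given as r in LT-HSC and in HPC-1, the nearest genes were *Rin3* (0.82 and 0.72) and *Ncf1* (0.58 and 0.53) for *Spi1*, *Ccl9* (0.78 and 0.71) for *Cebpa*, and *Atp8b4* (0.73 and 0.54) and *Ctsg* (0.66 and 0.65) for *Irf8*. They were *Mical1* (0.75 and 0.70) and *Gm2a* (0.82 and 0.19) for *Gfi1*, *Satb1* (0.65 and 0.72) and *Dntt* (0.66 and 0.69) for *Ikzf1*, *Msrb1* (0.68 and 0.60) and *Ywhaz* (0.53 and 0.65) for *Cebpb*, and *Hdc* (0.84 and 0.63) and *Fcgr3* (0.71 and 0.59) for *Cebpe*. *Gata1* and *Klf1* shared the gene *Ces2g*, with r in HPC-1 of 0.74 and 0.90 and in LT-HSC of 0.07 and −0.15, beside *Myh10* (0.20 and 0.70) for *Gata1* and *Abcb4* (−0.12 and 0.84) for *Klf1*. Among the 45 pairs of members, r over the 19 HPC-1 libraries ran from −0.40 to 0.82 (median 0.13), and was 0.82 for *Gata2* with *Klf1*, 0.78 for *Gata1* with *Gata2*, 0.76 for *Spi1* with *Cebpa* and 0.75 for *Cebpa* with *Irf8*. Over the 15 LT-HSC libraries, where several members were near the limit of detection, r ran from −0.41 to 0.64 (median 0.08).

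Ang II was compared with PBS in HET and KO LT-HSC and in HPC-1 of each genotype. In these 5 comparisons 0 members passed the edgeR quasi-likelihood test (Benjamini-Hochberg), and 0 by DESeq2 or by limma-voom with sample weights, beside 0% of all genes by edgeR in each. At an unadjusted p under 0.05 the counts were 0 members in LT-HSC HET (against 4.93% of genes), 0 in LT-HSC KO (0.917%), 0 in HPC-1 WT (3.18%), 3 in HPC-1 HET (3.93%) and 0 in HPC-1 KO (1.85%). The 3 members were *Spi1* (log2 difference 0.52, SE 0.166), *Cebpa* (0.76, SE 0.267) and *Gfi1* (0.92, SE 0.255), each with an edgeR Benjamini-Hochberg adjusted p of 1. In HPC-1 HET, *Spi1* was at 86.03, 79.4 and 89.5 CPM under PBS and 98.7, 138, 129 and 124 CPM under Ang II, and *Gfi1* at 37.4, 24.1 and 23.6 and 55.5, 62.1, 56.5 and 41.8 CPM. For both the groups did not overlap, as was so for 4.32% of genes (2 of 10 members), whereas for *Cebpa* they did. *Klf1* in HPC-1 HET was at 4.63, 2.28 and 19.5 CPM under PBS and 0.455, 0.913, 2.61 and 11.3 under Ang II, partly under the limit of detection, with overlap. In HPC-1 WT the log2 differences of 9 of 10 members were negative, among them *Spi1* (−0.25), *Cebpa* (−0.36) and *Gfi1* (−0.15), over a range of −0.84 to 0.07. In HPC-1 KO the members' log2 differences lay between −0.23 and 0.53, and in LT-HSC HET between −1.78 and 0.96. In LT-HSC KO each arm holds 1 of the 2 libraries apart, and the lowest values, −2.24 for *Irf8* and −2.39 for *Cebpa*, became −1.49 and −1.17 without them.

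The genotypes were compared in LT-HSC within each treatment, the study's main question. The 3 comparisons under Ang II share libraries, so their values are set side by side. Under Ang II, 0 of 10 members passed the edgeR quasi-likelihood test (Benjamini-Hochberg) between KO and WT, KO and HET, or HET and WT, against 1.69%, 0% and 0.831% of genes, and 0 passed by DESeq2 or limma-voom. At an unadjusted p under 0.05 they numbered 1, 2 and 0, against 17.7%, 2.6% and 15.7% of genes. *Ikzf1* was the 1 member between KO and WT. The Ang II WT libraries held 117 and 104 CPM and the KO libraries 161, 237, 148 and 168 CPM, without overlap (log2 difference 0.70, SE 0.242, adjusted p = 0.136, edgeR quasi-likelihood, Benjamini-Hochberg). It was 0.53 without the 2 libraries apart, with an edgeR quasi-likelihood Benjamini-Hochberg adjusted p of 0.0760. Such separate ranges of 2 against 4 libraries were found for 3 members (*Gata1*, *Cebpa* and *Ikzf1*) and for 23.7% of genes. The WT libraries differ from the others in the intestinal markers given above, whose part in this was not tested. Against HET, *Ikzf1* in KO gave a log2 difference of 0.24, and HET against WT 0.47. Between KO and HET the members at unadjusted p under 0.05 were *Cebpb* (1.22, adjusted p 1 by edgeR with Benjamini-Hochberg adjustment) and *Cebpe*, whose reads in Ang II KO all came from library 2. *Cebpb* was at 22.6, 54.8, 18.2 and 23.7 CPM in KO and 8.01, 15.7, 17.2 and 9.96 CPM in HET, with the lowest KO library close to the highest HET library, and without the 2 libraries apart the log2 difference was 0.74. *Gata2* in Ang II KO against HET differed by −0.22 and *Spi1* by 0.66, and without the 2 libraries apart these were −0.06 and −0.01.

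Under PBS, KO was compared with HET in LT-HSC, and 0 of 10 members passed the edgeR quasi-likelihood test (Benjamini-Hochberg), against 0% of genes, with 0 by DESeq2 and limma-voom. At an unadjusted p under 0.05 there were 5 members (*Cebpa*, *Irf8*, *Gfi1*, *Cebpb* and *Ikzf1*), against 3.99% of genes. Their log2 differences were 3.54 for *Cebpa*, 3.74 for *Irf8*, 1.53 for *Gfi1*, 1.11 for *Cebpb* and 0.47 for *Ikzf1*, all with an edgeR Benjamini-Hochberg adjusted p of 0.982. PBS KO library 2, which carried HPC-1 markers, was in this comparison, and without it (and without Ang II KO library 2) the values were 1.01, 1.06, 1.22, 1.08 and 0.14. Of the PBS libraries left, PBS KO library 3 held the highest value of all 5 members. They were *Cebpa* (11.2 CPM), *Irf8* (21.4 CPM), *Gfi1* (19.9 CPM), *Cebpb* (35.4 CPM) and *Ikzf1* (176 CPM). That library carried the neutrophil and erythroid markers given above. The part of those markers was not tested. For *Gata2* the log2 difference was −0.51 with all libraries and −0.18 without the 2 libraries apart.

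In HPC-1, where *Il27ra* does not separate the genotypes, 0 of 10 members passed the edgeR quasi-likelihood test (Benjamini-Hochberg) in any of 6 comparisons, and 0 by DESeq2 or limma-voom. The share of genes that passed by edgeR was 0.0152% for KO against WT under PBS and 0% in the other 5. Under PBS the members at an unadjusted p under 0.05 were 5 for KO against WT (*Gata2*, *Klf1*, *Spi1*, *Cebpa* and *Ikzf1*), 0 for KO against HET and 4 for HET against WT (*Spi1*, *Cebpa*, *Gfi1* and *Ikzf1*), against 6.55%, 1.14% and 4.78% of genes. Under Ang II they were 2 (*Gata2* and *Ikzf1*), 0 and 0, against 5.01%, 2.84% and 7.39%. KO against WT under PBS gave log2 differences of −0.61 for *Gata2*, −2.54 for *Klf1*, −0.49 for *Spi1*, −0.80 for *Cebpa* and 0.43 for *Ikzf1*, and HET against the same WT libraries −0.25, −1.46, −0.55, −0.70 and 0.38. For *Klf1*, KO against WT was −3.18 without WT library 1 and −1.25 without WT library 2, the 2 libraries holding 10.2 and 38.9 CPM. *Gfi1* differed by −0.67 in HET against WT and by −0.19 in KO against WT. With 2 WT libraries, ranges did not overlap for 6 members in KO against WT and for 6 in HET against WT, as was so for 28.9% and 23.7% of genes. Under Ang II, KO against WT gave −0.47 for *Gata2* and 0.40 for *Ikzf1*, whose 4 KO libraries all lay above the 3 WT libraries. There 1 member and 6.23% of genes had separate ranges. All comparisons with WT include the libraries with intestinal markers, at 57.5 to 309 CPM in HPC-1, and their part in these differences was not tested.

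Whether the Ang II effect differed between genotypes or cell types was tested directly, and in 4 such interactions 0 of 10 members passed the edgeR quasi-likelihood test (Benjamini-Hochberg), against 0% of genes in each, with 0 by DESeq2 and limma-voom. At an unadjusted p under 0.05 there were 0 members for KO against HET in LT-HSC (2.53% of genes), 1 for KO against HET in HPC-1 (1.28%), 1 for KO against WT in HPC-1 (3.42%) and 1 for LT-HSC against HPC-1 over HET and KO (2.84%). These were *Gfi1* (log2 difference of differences −0.81), *Spi1* (0.54, with the WT libraries) and *Irf8* (−2.03). For *Irf8* the value was −0.76 without PBS KO library 2 alone and −2.96 without Ang II KO library 2 alone. It was −1.69 without the 2 libraries apart, where *Cebpe*, with most LT-HSC libraries at 0, also came to an unadjusted p under 0.05 (−1.42 with all libraries and −5.03 without the 2). The adjusted p was 1 and 0.554 by edgeR with Benjamini-Hochberg adjustment.

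In the mouse annotation (GRCm38, the mm10 assembly) the members lie apart on the genome: *Gata2* at chr6:88193891-88207032, *Gata1* at chrX:7959260-7978071, *Klf1* at chr8:84901928-84905291 and *Irf8* at chr8:120736358-120756694, on the same chromosome as *Klf1*. *Spi1* lies at chr2:91082390-91115756, *Cebpb* on the same chromosome at chr2:167688915-167690418, *Cebpa* at chr7:35119293-35121928, *Cebpe* at chr14:54710360-54712174, *Gfi1* at chr5:107716657-107726036 and *Ikzf1* at chr11:11685003-11772926. Exons of *Cebpa* share 51 bases with the antisense gene *Gm45091*, those of *Cebpb* 312 bases with *Tmem189* and those of *Gfi1* 101 bases with *A430072P03Rik*, all on the other strand. The kit keeps strand but the counting is not stated to use it, so counts of these 3 genes are uncertain to that extent. *Irf8* overlaps *Gm20388* on its own strand, and *Ikzf1* *Gm11999* and *Gm12000* on the other, with no shared exon bases.

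Because *Gata2*, *Cebpa* and *Irf8*, like *Spi1*, separated the 15 LT-HSC libraries from every HPC-1 library, their promoters are shown, with that of *Gata1*, the partner gene of *Gata2*. RefSeq promoter windows of 250 bases before to 50 bases after the gene start (GRCm38.p6) were matched by symbol for 8 of the 10 members, 12 windows in all. *Spi1* and *Cebpe* had none in the table. Both strands were searched for 7 short motifs, and the share of all 32851 windows that hold each is given: AGATAA (11.2%) and TGATAA (9.05%) of GATA factors, GAGGAA (28.3%) of PU.1, TTGCNNAA (10.8%) of C/EBP factors, CCACACCC (3.56%) of KLF1, GGAAGTGA (3.42%) of IRF8 with PU.1, and TATAAA (13.6%), the TATA box, which was added after the sequences had been read. Capitals mark a match on the strand shown. *Gata2* (chr6:88193641-88193940, plus strand) held none of the 7, *Gata1* (chrX:7967861-7968160, minus strand) held GAGGAA 22 bases before its start, which RefSeq places inside the span annotated above, and *Cebpa* (chr7:35119043-35119342, plus strand) and *Irf8* (chr8:120736108-120736407, plus strand) held TATAAA 30 and 31 bases before theirs.
Gata2 promoter: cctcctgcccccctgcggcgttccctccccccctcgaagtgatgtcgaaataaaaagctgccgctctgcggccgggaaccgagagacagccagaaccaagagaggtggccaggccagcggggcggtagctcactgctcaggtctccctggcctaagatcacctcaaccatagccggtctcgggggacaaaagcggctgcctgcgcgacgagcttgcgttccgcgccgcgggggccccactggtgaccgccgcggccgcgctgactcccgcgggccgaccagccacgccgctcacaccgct
Gata1 promoter: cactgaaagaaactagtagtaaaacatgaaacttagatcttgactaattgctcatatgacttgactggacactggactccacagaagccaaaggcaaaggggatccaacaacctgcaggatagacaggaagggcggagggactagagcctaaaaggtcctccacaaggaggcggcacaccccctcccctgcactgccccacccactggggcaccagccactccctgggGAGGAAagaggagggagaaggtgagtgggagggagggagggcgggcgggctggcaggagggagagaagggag
Cebpa promoter: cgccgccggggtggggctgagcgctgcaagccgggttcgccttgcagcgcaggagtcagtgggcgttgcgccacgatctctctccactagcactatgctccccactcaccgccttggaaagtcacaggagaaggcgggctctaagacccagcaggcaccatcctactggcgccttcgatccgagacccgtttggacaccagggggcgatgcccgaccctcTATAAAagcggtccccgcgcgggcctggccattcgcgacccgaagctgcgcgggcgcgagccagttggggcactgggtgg
Irf8 promoter: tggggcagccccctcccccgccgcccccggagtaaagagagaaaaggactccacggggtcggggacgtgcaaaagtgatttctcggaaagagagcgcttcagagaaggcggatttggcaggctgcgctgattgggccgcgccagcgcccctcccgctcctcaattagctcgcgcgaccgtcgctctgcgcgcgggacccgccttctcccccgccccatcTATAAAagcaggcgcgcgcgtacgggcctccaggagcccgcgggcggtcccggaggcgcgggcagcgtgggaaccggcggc
The GC content of these windows was 69.3%, 57.3%, 67.3% and 70%, against a median of 52.7% over all windows. Elsewhere *Klf1* held TGATAA on the other strand 80 bases before its start, the first *Gfi1* window TTGCNNAA 143 bases before, and *Cebpb* TATAAA after its start, while the windows of *Ikzf1* and the second windows of *Gata2*, *Irf8* and *Gfi1* held none. A match is a description of these letters and not a site of binding.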

How the data were processed

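The deposited values are expected counts per gene, made by the authors from paired reads aligned to GRCm38 with Bowtie2 and counted with RSEM 1.2.31 per the labels, and given as whole numbers. The paper instead names STAR and an earlier RSEM version. From the 38887 genes and 36 libraries, edgeR 4.0.16 in R 4.3.3 computed TMM factors and CPM. Genes passing its filter on low counts were fitted with a trended dispersion and a robust quasi-likelihood model of 12 groups for the cell types and of 6 groups within each, and p-values were adjusted by Benjamini-Hochberg at 0.05. The code was checked on simulated counts. Alternatives were DESeq2 1.42.0, limma 3.58.1 voom with sample weights, upper-quartile scaling, no filter, a mean of at least 10 counts, a replicate block, a covariate of Y-linked genes, the compared groups alone, libraries under 4000000 counts alone, and leaving out libraries. Log2 values have a prior count of 2. Members and lists were chosen with earlier results of these data known. Every member is named; of each list (paralogs, partners, erythroid, megakaryocyte, granulocyte, monocyte and lymphoid genes) up to 4 passing genes per direction with the lowest adjusted p were chosen, of which the text gives some. Results of some single genes are not reported. Symbols came from GENCODE vM21, for 37570 genes holding 99.63% of counts.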

Additional observations from a re-analysis of the deposited data

Results flagged for a closer look

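A library far from the 3 others of its group was looked for by Dixon's test in 44 groups of 4 values (the 10 members and *Il27ra*, in 4 groups), and 6 were found, where chance gives about 1 in 20. For *Cebpe* the 3 others held no count, so any count at all would have met the rule, which leaves 5 others. *Klf1* in HPC-1 Ang II KO library 4 was at 19.3 CPM (98 counts), the others at 1.04 to 1.45 CPM. *Spi1* in LT-HSC Ang II HET library 3 was at 33.4 CPM (159 counts), below the others at 47.01 to 47.5 CPM. The remaining 4 were all in LT-HSC Ang II KO library 2, the library with neutrophil, erythroid and HPC-1 markers described above, and their link to those markers was not tested. There *Cebpa* was at 19.9 CPM (46 counts; others 1.64 to 3.58), *Cebpb* at 54.8 CPM (127 counts; others 18.2 to 23.7), *Cebpe* at 17.3 CPM (40 counts; others 0) and *Irf8* at 52.2 CPM (121 counts; others 3.48 to 4.44).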

How the results depend on the processing

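Between the cell types 8 members passed under 8 of 10 other settings and under each omission of 1 of 35 libraries. The lone library labelled LT-HSC PBS WT was left out only with its condition, and 7 passed then and 7 at a mean of at least 10 counts. In the mean of 6 conditions the called members kept their direction wherever tested. Within Ang II KO, however, *Cebpe* turned from 0.84 with all libraries to −6.11 without LT-HSC library 2. Over all genes 5254 to 7699 passed. The median log2 difference of all genes depended on scaling (−0.01 with TMM, 0.03 with upper quartile, 0.10 with DESeq2), as did the share higher in LT-HSC among genes that passed (46.1%, 51.6% and 55.7%). Single libraries moved the number of members within a condition: 3 to 6 passed in PBS HET, 0 to 4 in PBS KO, 1 to 4 in Ang II WT, 6 in each case in Ang II HET and 5 to 7 in Ang II KO when 1 was left out, the lone library of an arm being assumed to vary like the other groups. In PBS KO, where 0 passed, the number was 2 with DESeq2, 1 with upper-quartile scaling, 3 without a filter, 1 at a mean of at least 10 counts, 6 with limma-voom, 3 in libraries under 4000000 counts and 5 without the 2 libraries apart. Over all other settings 4 to 6 passed in PBS HET, 3 to 6 in Ang II WT (4 with limma-voom), 6 to 7 in Ang II HET and 4 to 8 in Ang II KO (4 with the compared groups alone and in libraries under 4000000 counts, 8 with limma-voom). Between cell types the correlation of deviations was over 0.1 in 7 of 16 same-numbered pairs (median 0.07) and 4 of 40 others (median −0.02), so same-numbered libraries were somewhat more alike, but not in every pair, and were not treated as paired. Within HPC-1 it was over 0.1 in 7 of 41 same-numbered pairs. Among these, PBS HET with PBS KO had values of 0.12, 0.15 and 0.48. Between those 2 groups 0 members passed under each of 9 other settings. With a replicate block 4 members passed in PBS HET, 1 in PBS KO and 3 in Ang II WT, and as many as without it in Ang II HET and Ang II KO. The calls lost in PBS HET were *Gfi1* (log2 difference −1.87) and *Irf8* (−4.68). Those lost in Ang II WT were *Spi1* (−1.45), *Gfi1* (−1.94) and *Irf8* (−5.10). Without a filter on low counts 2 members passed for Ang II in LT-HSC KO, 2 for KO against WT and 2 for KO against HET under Ang II in LT-HSC, 3 for KO against HET under PBS, 1 for the LT-HSC interaction of Ang II with genotype and 2 for that of Ang II with cell type, and each of these comparisons holds 1 or both of the libraries apart. Shares of all genes that passed are given above for the main settings within each condition. They are also given for some counts by DESeq2, limma-voom or without the 2 libraries apart. The counts without a filter, and other counts within a condition, have no such share. They do not show whether the members stand out. Besides *Cebpe* in Ang II KO, direction turned for *Cebpb* between the cell types without HPC-1 PBS WT library 2 (range over omissions −0.36 to 5.56e-05). Direction also turned for *Spi1* between KO and HET under Ang II in LT-HSC without the 2 libraries apart, as given above. It turned for *Irf8* in the cell type interaction in libraries under 4000000 counts (1.26) and for *Cebpe* in Ang II KO against HET with limma-voom (−0.52). In PBS KO against HET it turned for *Cebpa* (−5.09) and *Irf8* (−3.52), again in libraries under 4000000 counts. These hold 1 PBS KO library of LT-HSC, with 0 counts of *Cebpa* and 1 of *Irf8*, so the last 2 values rest on that library and on the prior count. The *Irf8* interaction value of 1.26 takes its PBS KO arm of LT-HSC from that same library alone. The cause of the other turns was not tested. *Cebpe* could not be tested at a mean of at least 10 counts. With 1 WT library under PBS and 2 under Ang II in LT-HSC, and most libraries under 4000000 counts, *Cebpe*, *Klf1* and, in LT-HSC, *Cebpa* and *Irf8* rest on few reads, and 0 calls between genotypes or treatments does not show that these genes are alike.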
